A study of Mus musculus with 17 samples.

Results

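Th, Ddc, Hdc and Hrh3 are genes of the neurons that make dopamine and histamine. All probe sets whose platform gene symbol was 1 of these 4 were taken, out of 12394 genes with a symbol of their own on the array. That gave 5 probe sets, 1 each for Th, Ddc and Hrh3 and 2 for Hdc. Of the 5, 4 were bright enough to be tested, and the dimmer Hdc probe set was not.

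The series measured RNA of single hypothalami on Affymetrix mouse arrays, under a title on diabetes, insulin and brain cholesterol. All 17 mice were C57Bl/6 males 9 weeks of age. There were 5 mice of genotype ob/ob, which lack leptin and become obese. Another 6 mice, wildtype by genotype, had been given 1 intraperitoneal injection of streptozotocin (STZ) at 200 µg per g of body weight; STZ destroys the insulin-making beta cells. The 6 controls, also wildtype, had been injected with vehicle. The labels state no injection of the ob/ob mice themselves, and give neither the interval after STZ nor how the hypothalamus was dissected.

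Tyrosine hydroxylase, encoded by Th, makes L-dopa from tyrosine and is the rate-limiting step of dopamine synthesis, and aromatic amino acid decarboxylase, encoded by Ddc, turns L-dopa into dopamine. In the hypothalamus, dopamine neurons of the arcuate nucleus restrain prolactin release from the pituitary, and the ventral midbrain just behind it holds the much larger dopamine groups that project to the striatum. Histidine decarboxylase, encoded by Hdc, makes histamine in neurons of the tuberomammillary nucleus, which promote waking and lower food intake. Hrh3 encodes the H3 receptor, coupled to inhibitory G proteins, which sits on histamine neurons as an autoreceptor and on other neurons as a brake on transmitter release.

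Values are MAS5 signals on a linear scale, which set no level of 1 probe set against that of another. The median signal of an array lay between 637.6 and 707.05, and correlations of log2 signals between arrays lay between 0.9544 and 0.9724. Of 16 hypothalamus markers 13 had a probe set and 9 were tested, and the sum of all 13 signals was 47590 to 57070 in ob/ob, 51310 to 68190 in STZ and 51280 to 63030 in control arrays. The brightest markers weigh most in that sum. The mean log2 level of the 9 tested markers was 11.49 to 11.78 in ob/ob, 11.67 to 11.93 in STZ and 11.77 to 12.09 in control arrays. Array control 2 had the lowest Th and Ddc signal of all 17 arrays, and the differences, spread and correlation of these genes are given with and without it.

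None of the 4 members tested passed an adjusted p of 0.05 in any comparison (limma, Benjamini-Hochberg over all 13576 probe sets tested). Over the whole array, 17 probe sets passed for ob/ob against control (0.125%), 7 for STZ against control (0.0516%) and 5 for ob/ob against STZ (0.0368%). An unadjusted p under 0.05 was reached by Hrh3 alone among the 4 members, in ob/ob against control, where 11.9% of probe sets reached it, and in ob/ob against STZ, where 3.93% did; no member did in STZ against control, where 8.24% did. The labels give 1 array to each mouse, and all p-values rest on the spread between the arrays. In pieces of whole tissue such as these, fewer cells of a type and less RNA per cell cannot be told apart.

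**Figure D1:**
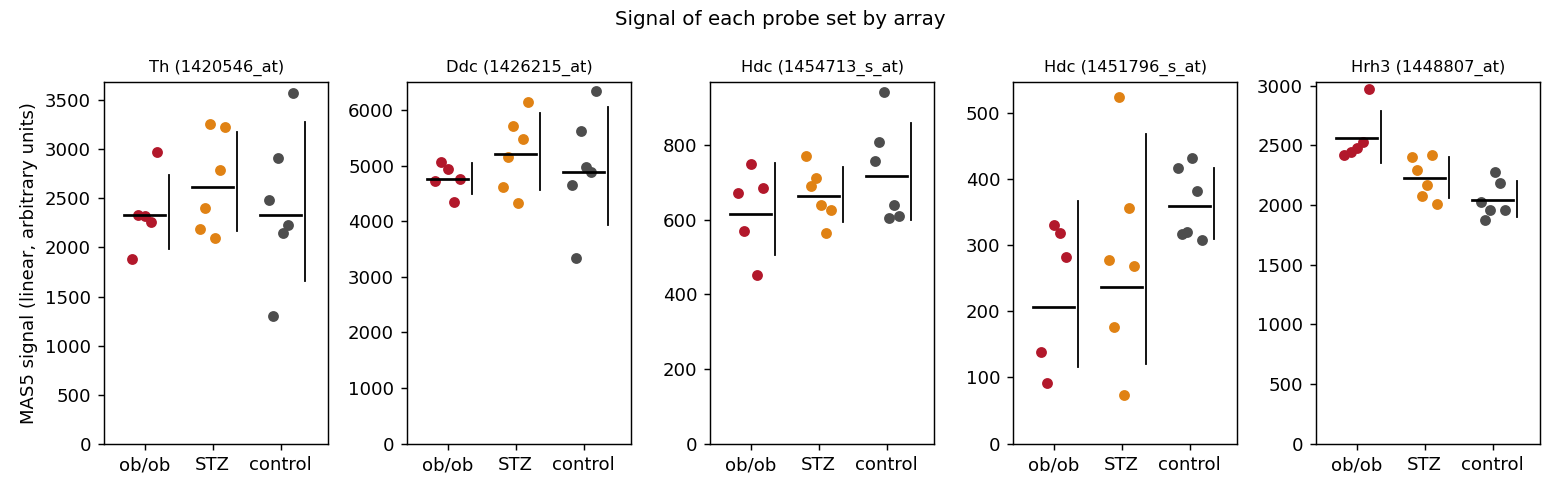
MAS5 signal (linear axis from 0) of the 5 probe sets of Th, Ddc, Hdc and Hrh3 in ob/ob, STZ and control arrays. Each point is 1 array, the horizontal line is the geometric mean of a group and the vertical line is 1 SD of the log2 signals to either side. The 5 ob/ob arrays of Hrh3, from 2415.2 up, lie above all 6 controls, while the groups overlap for the other probe sets.

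For Th (gene ID 21823, chr7:142892779-142899995 in GRCm38.p6, minus strand), signals in the ob/ob arrays were 1884, 2261.9, 2325.1, 2329.4 and 2976.4. STZ arrays ran from 2099.6 through a median of 2593 to 3259.1, and control arrays from 1306.2 through a median of 2358 to 3570.6. The controls were thus the widest group, and both other groups lay inside their range. Apart from control 2 the lowest control was 2149.2, with ob/ob 1 at 1884 and STZ 4 at 2099.6 below it. The difference of ob/ob from control was -0.0027 ± 0.187 on the log2 scale (± SE, n = 5 and 6, limma adjusted p = 0.997), with a 95% confidence interval of the fold from 0.761 to 1.309. STZ differed from control by 0.17 ± 0.179 (n = 6 and 6, adjusted p = 0.853), with an interval of the fold from 0.867 to 1.453. With intervals this wide the p-values do not show equal levels. Without control 2 the difference of ob/ob from control was -0.17 (adjusted p = 0.653) and that of STZ from control -0.00096 (adjusted p = 0.999).

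Ddc (gene ID 13195, chr11:11814101-11898144, minus strand) had signals of 4342.2, 4723.5, 4753.6, 4940.6 and 5068.1 in the ob/ob arrays. Its STZ arrays lay between 4332.9 and 6144.6 around a median of 5321, and its control arrays between 3341.4 and 6345.9 around a median of 4928. The ob/ob arrays lay closest together, and no array of ob/ob or STZ mice lay outside the control range. Apart from control 2 the lowest control was 4654.8, with ob/ob 4 at 4342.2, STZ 1 at 4606.2 and STZ 4 at 4332.9 below it. The log2 difference from control was -0.04 ± 0.118 in ob/ob (adjusted p = 0.939) and 0.09 ± 0.113 in STZ mice (adjusted p = 0.868). Without control 2 these were -0.14 (adjusted p = 0.504) and -0.017 (adjusted p = 0.965). Between ob/ob and STZ, Th differed by -0.17 ± 0.187 and Ddc by -0.13 ± 0.118 (limma adjusted p = 0.9996 for both).

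**Figure D2:**
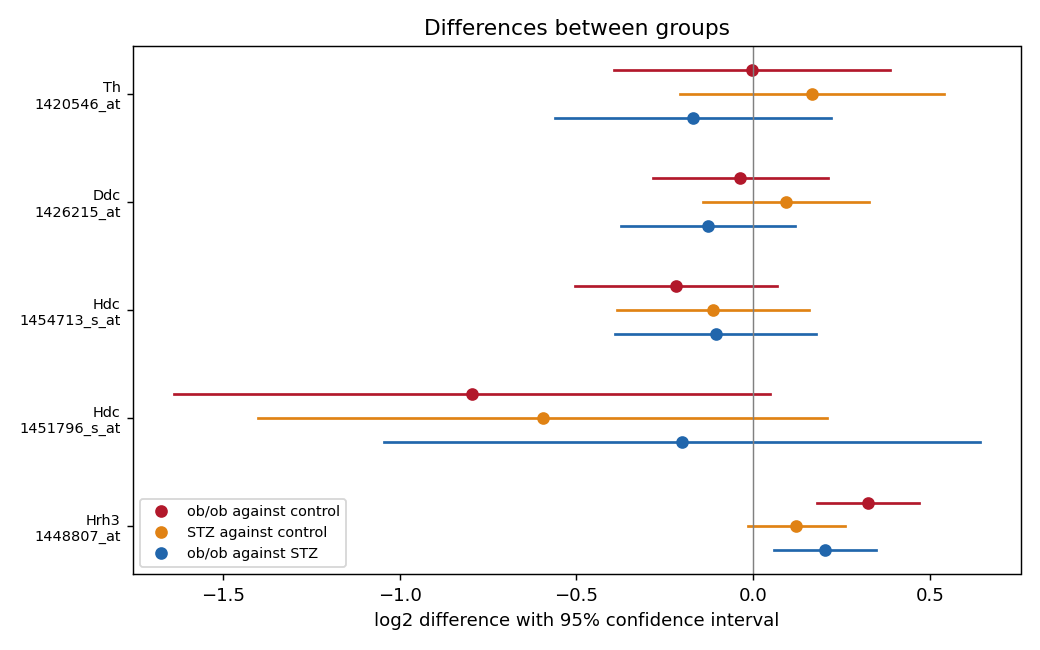
Log2 difference (horizontal axis) of each probe set of Th, Ddc, Hdc and Hrh3 for ob/ob against control, STZ against control and ob/ob against STZ. Points are limma estimates and lines their 95% confidence intervals. The interval of Hrh3 for ob/ob against control runs from 0.18 to 0.47, and the widest intervals are those of the dimmer Hdc probe set.

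Th, Ddc and Hdc varied widely between mice of 1 group. The SD of log2 Th signal within groups was 0.359, larger than that of 97% of tested probe sets, against a median of 0.139. That of Ddc was 0.224, larger than that of 82.6%, and that of the brighter Hdc probe set was 0.238, larger than that of 85.4%. Without control 2 these SDs were 0.273 for Th (91.3%), 0.162 for Ddc (63.1%) and 0.241 for Hdc (86.6%), so the rank of Ddc rested largely on that array. With the group means subtracted, Th and Ddc moved together across the 17 arrays (Pearson r = 0.894, permutation p = 0.00017, adjusted over 6 pairs of members p = 0.00102; Spearman rho = 0.767, adjusted permutation p = 0.0107). Without control 2 and control 6, the arrays farthest from the median of Th, r was 0.726 (adjusted permutation p = 0.0406), and without control 2 alone it was 0.794. Within the 6 STZ arrays r was 0.956 and within the 6 controls 0.971 (exact permutation p = 0.00556 and 0.00833, not adjusted), or 0.899 over the 5 controls other than control 2. The 5 ob/ob arrays, a small number for a correlation, did not show the relation (r = 0.103, exact permutation p = 0.883). Their highest Th signal, 2976.4, came with a Ddc signal of 4753.6, the middle one of the 5. Whether the relation differed between groups was not tested. In the other 5 pairs of members r lay between -0.157 and 0.0657 (adjusted permutation p = 0.865 for each).

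The genes whose signals followed Th most closely over the 17 arrays, group means subtracted, were Slc6a3, the dopamine transporter (r = 0.924), Ddc, Chrna6, a nicotinic acetylcholine receptor subunit of midbrain dopamine neurons (r = 0.852), Cnn3, an actin-binding calponin (r = 0.842), and Hmgn5, a nucleosome-binding protein (r = 0.833). For Ddc they were Slc6a3 (r = 0.951), Th, Stard6, of the lipid-binding START family (r = 0.837), Aldh1a1, an aldehyde dehydrogenase of ventral midbrain dopamine neurons (r = 0.836), and Mtx2, a mitochondrial outer membrane protein (r = 0.812). These r values are the highest of 7990 genes and describe the ranking only. Slc6a3 had 3581.9 to 4667 in ob/ob, 3731.2 to 6143.6 in STZ and 2074.7 to 6947.2 in control arrays. In control 2 Slc6a3 stood at 2074.7, Chrna6 at 511 and Aldh1a1 at 4091.7, each the lowest of all 17 arrays, as for Th and Ddc. In control 6, the highest array for Th and Ddc, Slc6a3 stood at 6947.2 and Chrna6 at 1270.2, also the highest of all, while Aldh1a1 stood at 7142.6, below the highest STZ array at 8257.7.

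**Figure D3:**
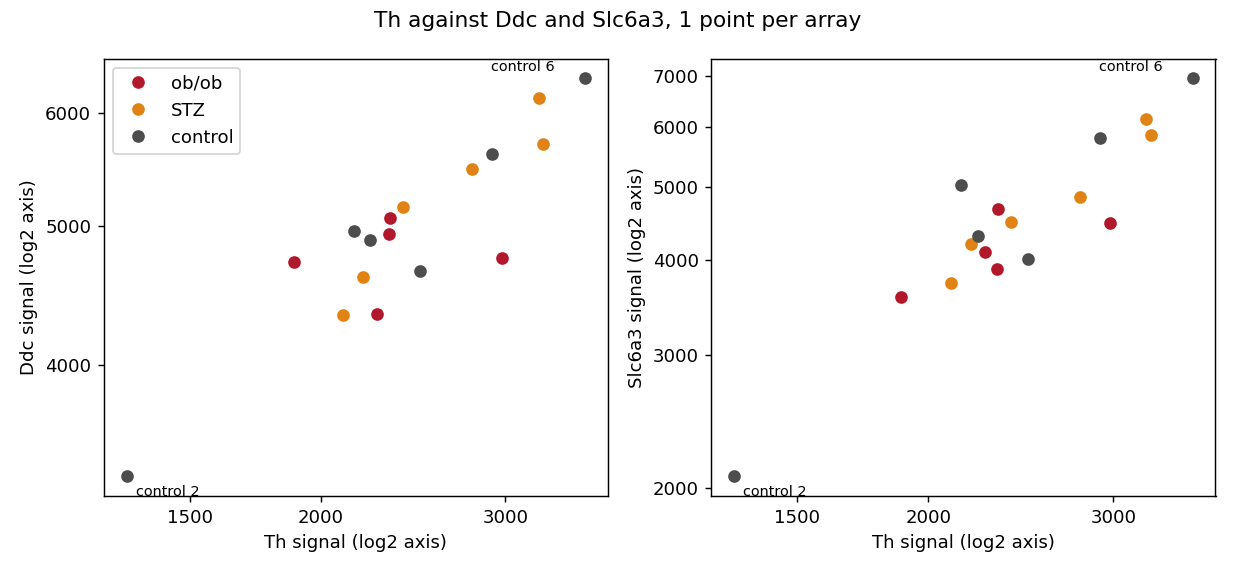
Signal of Ddc (left) and of Slc6a3 (right) against that of Th, both axes log2, with 1 point for each of the 17 arrays of ob/ob, STZ and control mice. Control 2, with a Th signal of 1306.2, lies at the low end of both panels and control 6, with 3570.6, at the high end.

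Markers of midbrain dopamine neurons were therefore set beside Th and Ddc over the arrays, a choice made after the spread was seen. All 7 markers of the list had a probe set and 5 were tested (Slc6a3, Aldh1a1, Chrna6, Calb1 and Sncg). The other 2, the transcription factors Pitx3 and En1, were under the signal filter of 435, with geometric means of 236 and 187 in ob/ob, 244 and 189 in STZ and 216 and 204 in control arrays. The sum of the 7 signals was 19700 to 23780 in ob/ob, 20110 to 27140 in STZ and 16280 to 25550 in control arrays. Over the 17 arrays, group means subtracted, the mean log2 level of the 5 tested markers had r = 0.913 with Th and 0.918 with Ddc (rho = 0.831 and 0.85). Without control 2 and control 6 these r were 0.791 and 0.79. Since Slc6a3, Chrna6 and Aldh1a1 had already ranked among the genes most like Th or Ddc, these values are a description, with no test. The level of 5 striatal markers ran the other way, with r = -0.728 for Th and -0.718 for Ddc (permutation p adjusted over 36 relations = 0.0195 and 0.0251), and -0.754 and -0.76 without those 2 arrays. With the midbrain level as a covariate the log2 difference of Th was 0.12 for ob/ob and 0.06 for STZ against control (adjusted p = 0.645 for ob/ob). The part of midbrain tissue in the spread of Th and Ddc was not tested beyond these values. Slc6a3 is also in the list of arcuate dopamine neuron genes, so the midbrain level cannot tell midbrain from arcuate dopamine neurons. Dbh, the enzyme that makes noradrenaline from dopamine, was under the filter at 415 in ob/ob, 365 in STZ and 367 in control arrays. All 4 noradrenaline markers and all 3 serotonin markers with a probe set were under it, with summed signals no higher than 1355 and 456.7 in any array.

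The 250 bases before the start of Th and of the 2 Ddc starts are shown because these 2 genes moved together over the arrays. They are from RefSeq on GRCm38.p6, all on the minus strand and 5′ to 3′, and capitals mark matches to the motifs searched on both strands. Those were the cAMP response element TGACGTCA, the AP-1 site TGANTCA, the NBRE of the Nr4a receptors AAAGGTCA and the TATA box TATAAA.
Th, chr7:142899996-142900245: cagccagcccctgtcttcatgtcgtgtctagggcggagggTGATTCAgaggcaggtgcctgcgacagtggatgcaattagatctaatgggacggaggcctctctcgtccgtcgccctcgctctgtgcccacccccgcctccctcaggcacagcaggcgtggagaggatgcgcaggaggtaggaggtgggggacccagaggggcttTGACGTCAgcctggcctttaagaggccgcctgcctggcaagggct
Ddc start 1, chr11:11898145-11898394: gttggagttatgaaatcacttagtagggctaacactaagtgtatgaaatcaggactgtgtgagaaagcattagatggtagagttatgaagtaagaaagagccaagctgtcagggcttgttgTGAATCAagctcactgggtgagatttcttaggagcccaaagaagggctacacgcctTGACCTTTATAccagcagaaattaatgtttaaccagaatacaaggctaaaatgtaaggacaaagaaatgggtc
Ddc start 2, chr11:11890409-11890658: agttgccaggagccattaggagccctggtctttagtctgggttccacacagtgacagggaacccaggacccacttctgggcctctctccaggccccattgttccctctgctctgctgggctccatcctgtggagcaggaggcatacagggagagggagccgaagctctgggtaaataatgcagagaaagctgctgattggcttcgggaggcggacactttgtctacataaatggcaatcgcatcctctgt
The Th window held a cAMP response element 45 to 38 bases before the start, which 1.55% of 32851 mouse promoter windows of the same length hold, and an AP-1 site 210 to 204 bases before it. The window of Ddc start 1 held an AP-1 site 129 to 123 bases before the start (6.75% of windows) and, on the other strand, an NBRE at 73 to 66 bases (1.34%) that overlaps a TATA box match at 68 to 63 bases (12.4%). Of the motifs searched, the AP-1 site was thus the one held by the windows of Th and of Ddc start 1, and 6.75% of all windows hold it. Which Ddc start was in use in these tissues was not tested, nor was the part of any motif in the relation of Th and Ddc. The window of Ddc start 2 and those of Hdc and Hrh3 held none of the 4 motifs. By base composition the windows ran from 40.8% G and C at Ddc start 1 to 64.4% at Th and 80.8% at Hrh3, against a median of 52.4% over all windows.

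Hdc (gene ID 15186, chr2:126593659-126624025, minus strand) was read by 2 probe sets of the kind that may match more than 1 transcript. On the brighter one the ob/ob arrays had 451.3, 570.5, 672.1, 684.7 and 748.9. STZ arrays ran from 562.9 through a median of 663.8 to 770.1 and control arrays from 604 through a median of 698.7 to 942.9. Of the ob/ob arrays 2 lay below every control, and 1 of the STZ arrays did. The log2 difference from control was -0.22 ± 0.137 in ob/ob (adjusted p = 0.562) and -0.11 ± 0.13 in STZ mice (adjusted p = 0.865), and that of ob/ob from STZ was -0.11 ± 0.137 (limma adjusted p = 0.9996).

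On the dimmer Hdc probe set the ob/ob arrays had 91.9, 137.8, 282.5, 318.1 and 330.2. STZ arrays ran from 73.2 through a median of 272.7 to 523.3, and control arrays from 307 through a median of 350.6 to 431.5. Here 3 of 5 ob/ob and 4 of 6 STZ arrays lay below the lowest control, although an STZ array was also the highest of all. Its difference was -0.80 ± 0.403 in ob/ob (adjusted p = 0.586) and -0.60 ± 0.384 in STZ mice (adjusted p = 0.817), from the same limma fit run on all 22626 probe sets without the filter, where 0.0619% and 0.0309% passed. That of ob/ob from STZ was -0.20 ± 0.403 in this fit (limma adjusted p = 0.9996), where 0.00442% passed. Signals as low as these are imprecise, and the SD of the log2 signals was 0.83 in ob/ob, 0.978 in STZ and 0.217 in control arrays. The 2 Hdc probe sets did not follow each other over the arrays, with r = 0.00293 and rho = -0.00245 after subtracting group means (permutation p = 0.991 and 0.997) and r = 0.199 without control 3 and ob/ob 4.

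The gene that followed the brighter Hdc probe set most closely was Gal, the precursor of galanin, a peptide that tuberomammillary neurons also make (r = 0.799 over 17 arrays, group means subtracted). The next were Abhd8, of the alpha/beta hydrolase family (r = 0.764), D10Wsu102e (r = 0.754), Lmf1, a lipase maturation factor (r = 0.746), and Cd300ld, an immune receptor (r = 0.741). Gal had 2147.5 to 2796.9 in ob/ob, 2820.6 to 3159.6 in STZ and 2635.1 to 3403.1 in control arrays. Its ob/ob arrays lay below every STZ array, as was so for 0.273% of tested probe sets. The log2 difference of Gal was -0.29 ± 0.0721 for ob/ob against control (limma adjusted p = 0.0886) and -0.06 ± 0.0687 for STZ against control (adjusted p = 0.863).

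Hdc on that probe set also moved with the mean log2 level of the 9 tested hypothalamus markers (r = 0.774, permutation p = 0.00179, adjusted over 36 relations p = 0.0161; rho = 0.804, adjusted p = 0.00996), with r = 0.704 without control 3 and ob/ob 4. That level averaged 11.69 ± 0.114 in ob/ob, 11.78 ± 0.0905 in STZ and 11.91 ± 0.12 in control arrays (SD, n = 5, 6 and 6). It was lowest in ob/ob 4, at 11.49, the array with the lowest Hdc signal. With that level as a covariate the log2 difference of Hdc was 0.16 for ob/ob against control (adjusted p = 0.757) and 0.11 for STZ against control (adjusted p = 0.823). The level includes Pomc, the precursor of alpha-MSH in arcuate neurons, which fell in both comparisons, by 0.75 ± 0.122 in ob/ob (limma adjusted p = 0.0121) and by 0.65 ± 0.116 in STZ mice (adjusted p = 0.0384). In ob/ob 5 of the 9 markers, Pomc among them, were at an unadjusted p under 0.05 on the lower side, where 6.12% of probe sets were, so this covariate holds part of the difference between the groups. The relation of Hdc with 2 cortex markers had r = -0.635 (adjusted permutation p = 0.0438), but by rank its adjusted p was 0.109, and r was -0.442 without those 2 arrays. Mast cells are another source of histamine in the brain, and their 8 markers summed to 2650 to 3209 in ob/ob, 2682 to 3573 in STZ and 2636 to 3068 in control arrays. Of these markers 2 were tested: Kit, a receptor that neurons also carry, at 1390 in ob/ob, 1390 in STZ and 1360 in control arrays, and Cma1, the mast cell chymase, at 426, 480 and 452 in the same groups (limma adjusted p at least 0.902). Among the others, Cpa3, the mast cell carboxypeptidase, and Tpsb2, a tryptase, stood at 376 and 151 in ob/ob, 311 and 178 in STZ and 313 and 144 in control arrays. The part of mast cells in the Hdc signal was not tested.

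**Figure D4:**
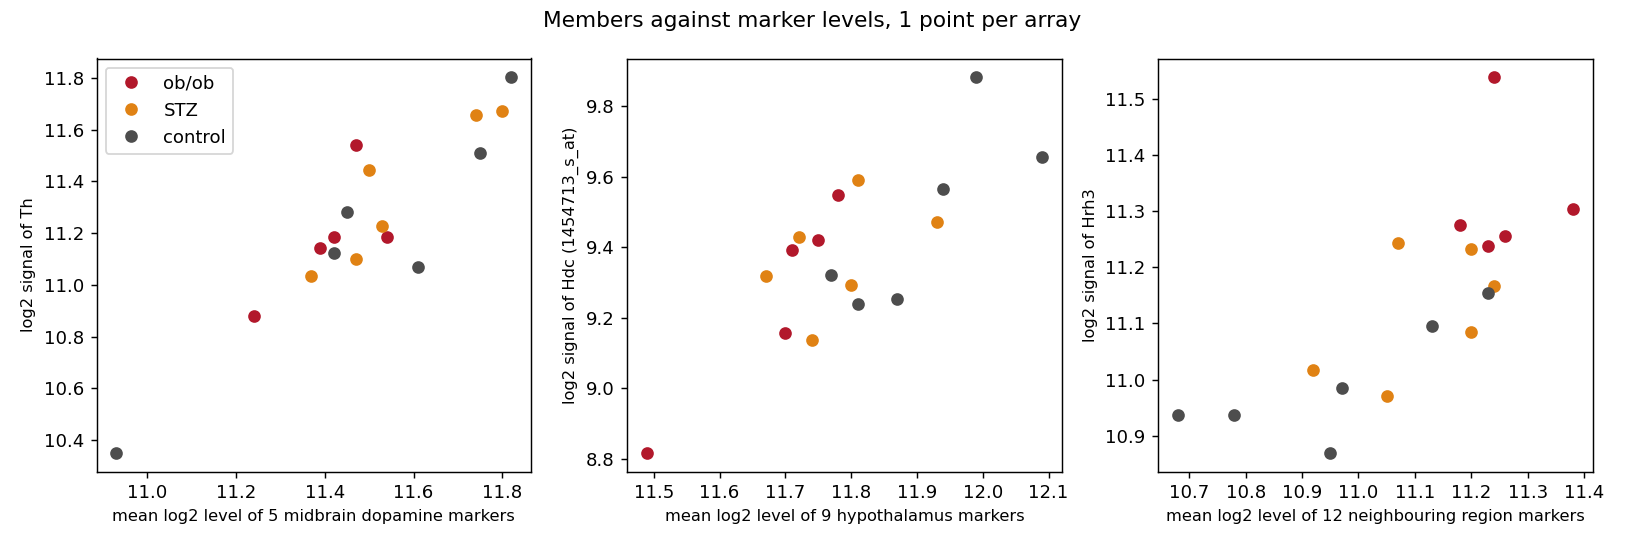
Log2 signal of Th, of Hdc (brighter probe set) and of Hrh3 against the mean log2 level of 5 midbrain dopamine, 9 hypothalamus and 12 neighbouring region markers, with 1 point for each array of ob/ob, STZ and control mice. Control 2 lies lowest on both axes of the left panel, ob/ob 4 lowest on both axes of the middle panel, and the ob/ob arrays lie between 11.18 and 11.38 on the horizontal axis of the right panel.

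Hrh3 (gene ID 99296, chr2:180099465-180104484, minus strand) came nearest to the threshold. Its signals in the ob/ob arrays were 2415.2, 2445.8, 2479.4, 2526.6 and 2973.3. STZ arrays ran from 2006.4 through a median of 2235 to 2422.4 and control arrays from 1871.4 through a median of 1994 to 2277.5. All 5 ob/ob arrays lay above every control array, as was so for 0.84% of tested probe sets, and 4 of them above every STZ array. Of the STZ arrays 3 lay above the highest control and 6 above the control median. The groups were tight, with an SD of log2 signal of 0.123 in ob/ob, 0.113 in STZ and 0.107 in control arrays, and 34.7% of tested probe sets had a smaller spread within groups.

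Hrh3 was 1.253 times as high in ob/ob as in control arrays, with a 95% confidence interval from 1.135 to 1.385 (log2 difference 0.33 ± 0.0688). By limma its unadjusted p was 0.000133, it ranked 32 of 13576, and its adjusted p of 0.0566 missed the threshold. STZ differed from control by 0.12 ± 0.0656 (adjusted p = 0.651), and ob/ob from STZ by 0.20 ± 0.0688 (unadjusted p = 0.00798, limma adjusted p = 0.9996). The last of these also tests whether the difference from control was unlike in ob/ob and STZ mice, because the controls are shared. The order of the means was ob/ob at 2560, STZ at 2220 and control at 2040, and no neighbouring pair in that order passed the test. Without control 4, the highest control, the difference of ob/ob from control was 0.36 and passed (adjusted p = 0.035). Without any other single array it lay between 0.27, without ob/ob 5, and 0.35, with adjusted p between 0.0629 and 0.125.

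Markers of the regions around the hypothalamus were on average higher in ob/ob than in control arrays too. Of the 5 tested thalamus markers 1, Slc17a6, went the other way, at -0.08. Over 12 tested markers of striatum, cortex and thalamus the mean log2 level was 11.26 ± 0.0743 in ob/ob, 11.11 ± 0.122 in STZ and 10.96 ± 0.206 in control arrays (SD, n = 5, 6 and 6). The ob/ob arrays reached from 11.18 to 11.38 and the controls from 10.68 to 11.23. By region, the summed signals of the striatal list were 17190 to 21540 in ob/ob, 14640 to 23760 in STZ and 12240 to 18520 in control arrays, and those of the thalamic list 13960 to 17350, 12410 to 15050 and 12150 to 16990 in the same groups. With the 12-gene level as a covariate, the log2 difference of Hrh3 for ob/ob against control was 0.20 (SE 0.0853, limma adjusted p = 0.611). With the hypothalamus level it was 0.24 (SE 0.0904, adjusted p = 0.473). Both levels differed in mean between the groups, so these covariates hold part of the difference between them. Over the whole array 0 probe sets passed with either level. The level of 8 neuron markers averaged 12.97 in ob/ob, 12.99 in STZ and 12.99 in control arrays. With that level the Hrh3 difference was 0.35 and passed (limma adjusted p = 0.0108). The part of tissue from neighbouring regions in the Hrh3 signal was not tested beyond these values.

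With group means subtracted, Hrh3 had r = 0.719 with the neuron markers (permutation p adjusted over 36 relations = 0.0161), 0.666 with thalamus, -0.605 with astrocyte and 0.601 with oligodendrocyte markers (adjusted p = 0.0285, 0.0285 and 0.0491). None of these 4 passed by rank (adjusted p for rho = 0.0768, 0.157, 0.105 and 0.178). The 36 relations include those of Th and Ddc with the midbrain level, given above as a description. Their low p-values lower the adjusted p of the other relations. Without control 4 and ob/ob 5 these 4 r values were 0.638, 0.453, -0.68 and 0.315. Over all 17 arrays Hrh3 had r = 0.0646 with the striatum and 0.184 with the cortex markers (adjusted permutation p = 0.924 and 0.723). The 3′ over 5′ ratio of the Gapdh and Actb controls, a measure of RNA integrity, had r = -0.0417 with Hrh3 and between 0.00549 and 0.431 with the other members, and none passed. The genes most like Hrh3 over the 17 arrays, group means subtracted, were Rcc2, a regulator of chromosome condensation (r = 0.865), Ntng1, the axon guidance protein netrin-G1 (r = 0.837), Ripor1 (r = 0.831), Ptp4a3, a phosphatase (r = 0.792), and Nfic, a nuclear factor I transcription factor (r = 0.789).

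Around the members, no gene of the dopamine and histamine pathways passed the threshold. Of 11 genes of dopamine synthesis, cofactor supply, storage and reuptake 8 had a probe set and 7 were tested, with a median log2 difference of -0.025 in ob/ob and 0.09 in STZ against control, where the medians over all 7990 genes tested were 0.0053 and 0.0045. Slc6a3 differed from control by -0.09 ± 0.21 in ob/ob and 0.13 ± 0.2 in STZ mice. Spr and Pcbd1, enzymes of the tetrahydrobiopterin cofactor that Th needs, stood at 0.07 and -0.13 in ob/ob and at 0.14 and -0.05 in STZ mice. Gch1, which starts the synthesis of that cofactor, was under the filter, at -0.14 and 0.13. Nr4a2, the transcription factor Nurr1 that dopamine neurons need, stood at -0.12 ± 0.0999 in ob/ob and 8.91e-05 ± 0.0953 in STZ mice. Of the 6 transcription factors of dopamine neurons tested out of 15, the others named by smallest p were Isl1 (-0.17 in ob/ob and -0.09 in STZ), Dlx1 (-0.15 and -0.02), Dlx2 (0.06 and 0.11) and Arnt2 (0.02 and -0.08). The medians of that list were -0.06 in ob/ob and -0.01 in STZ mice.

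In the list of histamine genes, 5 of 8 were tested, with medians of 0.05 in ob/ob and 0.0065 in STZ against control. Hrh2, the H2 receptor, which is coupled to stimulatory G proteins, stood at 0.17 ± 0.134 in ob/ob (adjusted p = 0.667) and 0.39 ± 0.128 in STZ mice (unadjusted p = 0.00651, limma adjusted p = 0.386). Its signals were 504.9 to 633.9 in ob/ob, 472 to 855.8 in STZ and 388.1 to 582.8 in control arrays, so the groups overlapped. Hrh1, the H1 receptor, stood at -0.14 in ob/ob and -0.09 in STZ mice, and Hnmt, which inactivates histamine in the brain, at 0.05 and 0.0065. At an unadjusted p under 0.05 the list held 1 gene in ob/ob, Hrh3, and 1 in STZ against control, Hrh2, both on the higher side, where 5.75% and 3.87% of probe sets were. Among 4 of 10 genes of tuberomammillary neurons that were tested, 0 passed, and 3 had a negative log2 difference in ob/ob (median -0.19) and 3 in STZ against control (median -0.07). Over all genes tested, 51.9% of log2 differences were positive in ob/ob and 51.7% in STZ mice. The 3 genes were Gal, Hdc and Gad2, which makes the transmitter GABA and stood at -0.16 ± 0.0685 in ob/ob (adjusted p = 0.341) and -0.08 ± 0.0653 in STZ mice (adjusted p = 0.781). The other tested gene, Gad1, stood at 0.0125 in ob/ob and 0.018 in STZ mice. In ob/ob 2 of the 4, Gal and Gad2, were at an unadjusted limma p under 0.05 on the lower side, where 6.12% of probe sets were. In STZ against control 0 of the 4 were. Gal, Gad1 and Gad2 are also in the list of arcuate dopamine neuron genes, of which 7 of 10 were tested. There 6 were negative and 1 positive in ob/ob (median -0.09), and 2 were negative and 5 positive in STZ against control (median 0.018).

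**Figure D5:**
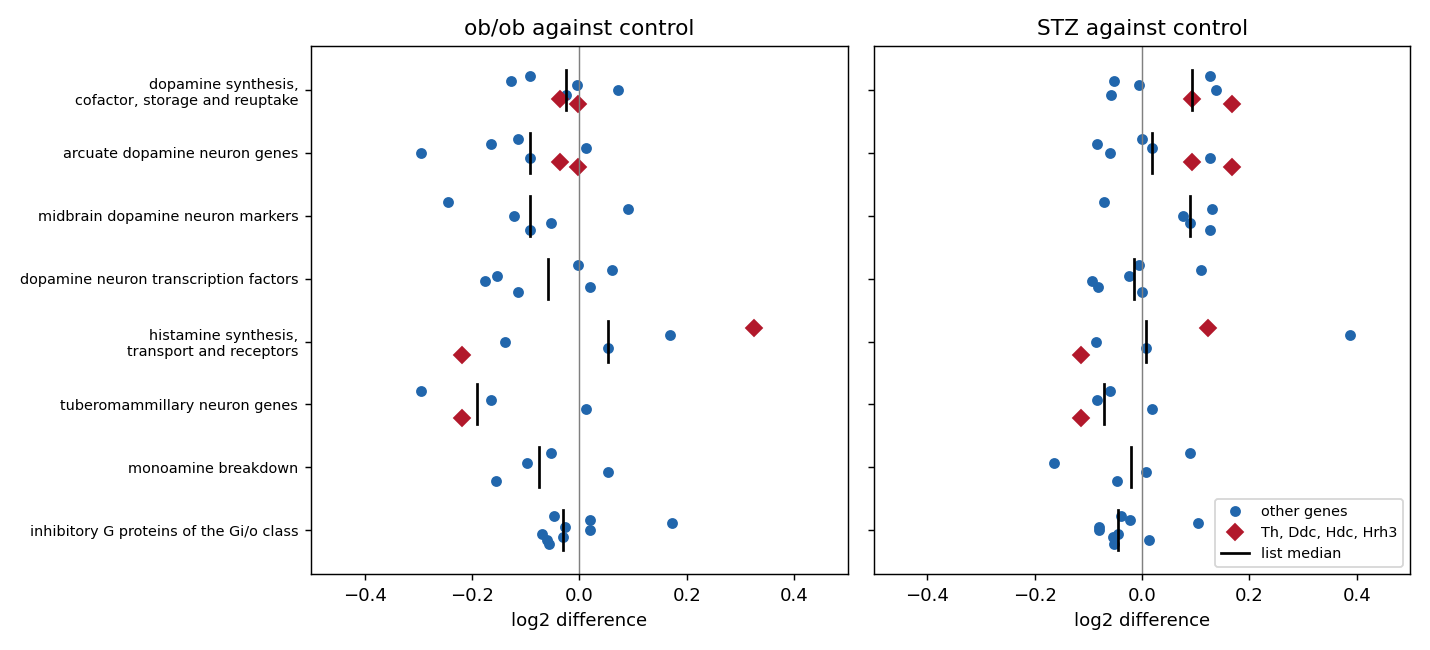
Log2 difference of ob/ob (left) and STZ (right) against control for the tested genes of 8 lists. Circles are genes, diamonds are Th, Ddc, Hdc and Hrh3, and black bars are list medians. Hrh3 lies farthest to the right in ob/ob, at 0.33, and Hrh2 in STZ, at 0.39.

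Of the enzymes that break down monoamines, 4 of 7 were tested. Maoa, monoamine oxidase A, had 1935.7 to 2199.7 in ob/ob, 2083.8 to 2441.1 in STZ and 2142.3 to 2510.8 in control arrays, a difference of -0.16 ± 0.0555 for ob/ob (unadjusted p = 0.0107, limma adjusted p = 0.26) and -0.05 ± 0.0529 for STZ against control. Aldh2, the mitochondrial aldehyde dehydrogenase, stood at -0.10 in ob/ob and -0.16 ± 0.0611 in STZ mice (adjusted p = 0.461). The D2 receptor Drd2, which dopamine neurons carry as an autoreceptor, stood at 0.20 ± 0.104 in ob/ob (adjusted p = 0.474) and 0.06 ± 0.0989 in STZ mice. Drd2 also marks striatal neurons, and it is in that marker list too. All 9 genes of the inhibitory G proteins and their regulators were tested, with medians of -0.03 in ob/ob and -0.05 in STZ against control. Rgs7, which shortens signalling by these G proteins, had 3583.9 to 4244.4 in ob/ob, 3604.3 to 3887.8 in STZ and 3208.5 to 3714 in control arrays. Its difference from control was 0.17 ± 0.0496 in ob/ob (adjusted p = 0.149) and 0.11 ± 0.0473 in STZ mice (adjusted p = 0.568). The G protein subunits Gnai1 and Gnao1 stood at -0.06 and -0.07 in ob/ob and at -0.05 and -0.05 in STZ mice, and Rgs4, another regulator of the same kind, at -0.03 and -0.08.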

How the data were processed

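MAS5 signals of 17 hypothalamus arrays were analysed. The deposited unit is intensity, with 1 signal for each probe set on each array, which the authors made with MAS5, per the submitters' processing notes, while its version, scaling target and detection calls are not given in the sources used here. The deposited signals run from 0.1 to 48576.7, and their 2% trimmed mean is 1500.4 for each array. MAS5 scales each array to a common mean, so differences are relative to the rest of the array, and dim probe sets are noisy.

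After removal of 64 control probe sets, log2 was taken without a pseudocount. Those whose mean log2 signal was under the 40th percentile (a signal of 435) were not tested, which left 13576. Of the 22626 probe sets, 20380 had 1 symbol and 691 several, in the platform annotation. The brightest probe set stood for a gene, and _x_at ones did so only in default of another. A model of 3 group means was fitted to all arrays with limma 3.58.1 (eBayes with trend) in R 4.3.3, with Benjamini-Hochberg adjustment and a threshold of 0.05, and tested on simulated data. Correlations used 100000 permutations within groups (SciPy 1.17.1). Groups came from the array titles, and 0 pairs of arrays were identical. The number of arrays limits the precision.

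Besides the members, 15 genes were to be named whatever their values, the 3 with the smallest p in each pathway list and the 5 most alike to each member. Slc18a2, Prlr, Drd1, Maob and Tph2 were among the 15 and are not analysed here; 1 other gene is not reported here. The members and lists were chosen with earlier results of these data known. The alternatives were another filter, another normalization, other variance models, array weights, covariates, a replicate block and single arrays left out.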

Additional observations from a re-analysis of the deposited data

Results flagged for a closer look

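The highest Hrh3 signal among the ob/ob arrays, 2973.3 in ob/ob 5, lay far from the other 4 ob/ob arrays, which reached from 2415.2 to 2526.6. Its gap to the next array was too large a share of the group's range by Dixon's test. Of 15 groups of arrays looked at this was the 1 that stood out. By chance the test flags about 1 in 20 groups, so 1 flag among 15 groups is near that rate. The 4 other ob/ob arrays also lay above the highest control, 2277.5, and without ob/ob 5 the log2 difference of Hrh3 for ob/ob against control was 0.27 (limma adjusted p = 0.125). In ob/ob 5 the mean log2 level of the oligodendrocyte markers was 13.59 and that of the thalamus markers 11.37, each the highest of the ob/ob arrays. Its levels of the striatum markers, 11.13, and of the cortex markers, 11.21, were each the lowest of the ob/ob arrays. The same array had the highest neuron marker level of the 5, at 13.0, and the highest log2 ratio of 3′ to 5′ control probe sets, at 0.054, against 0.025 in the next. The part of these in the Hrh3 signal was not tested.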

How the results depend on the processing

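Under none of the alternatives did Th, Ddc or Hdc pass the threshold in any comparison, and Hrh3 passed for ob/ob against control alone, with array weights (0.32, adjusted p = 0.0347), with the mean of all probe sets of each gene (0.33, adjusted p = 0.0496), with the neuron marker level as a covariate (0.35, adjusted p = 0.0108) and without control 4 (0.36, adjusted p = 0.035); with its other alternatives, single arrays left out aside, it lay between 0.20 and 0.33. Since Hrh3 has 1 probe set, the mean of all probe sets left its signals unchanged, and only the set of genes fitted with it differed. The covariates of midbrain, hypothalamus and neuron markers were chosen after seeing the data. Signs turned as follows (log2 differences). For ob/ob against control, Th was 0.37 with the neighbouring region level and 0.12 with the midbrain level, Ddc 0.18 and 0.041, and the brighter Hdc probe set 0.0081 with the neighbouring and 0.16 with the hypothalamus level. For STZ against control that Hdc probe set was 0.0051 and 0.11 with the same 2 levels. For ob/ob against STZ, Th was 0.011 with the neighbouring and 0.056 with the midbrain level, Ddc 0.013 with the midbrain level, the brighter Hdc probe set 0.0030 with the neighbouring and 0.053 with the hypothalamus level, and the dimmer one 0.029 with array weights. Leaving out control 2 and control 6 turned r to 0.206 for Th and Hdc, -0.101 for Th and Hrh3 and 0.194 for Ddc and Hdc. Among values that kept their sign and missed the threshold, Hdc was -0.51 in ob/ob and -0.35 in STZ against control with the mean of its probe sets. With the neighbouring region level, STZ against control gave 0.36 for Th, 0.20 for Ddc and 0.059 for Hrh3, and with array weights 0.036 for Th and 0.019 for Ddc. The causes were not tested. The array titles number the replicates and state no pairing of mice. Over 16 pairs of arrays with the same number, deviations from the group means over all tested probe sets had r between -0.165 and 0.109. Such whole-array values cannot show whether the signals of single genes were paired. With the replicate block, Th was 0.089, Ddc 0.026 and Hrh3 0.31 (adjusted p = 0.0652) for ob/ob against control, and it left 1 probe set called for ob/ob against STZ. For STZ against control the SE with the block was 0.134 for Th and 0.0894 for Ddc, against 0.179 and 0.113 without it. That SE was 0.103 for the brighter Hdc probe set and 0.0567 for Hrh3, against 0.13 and 0.0656. Leaving out single arrays gave, for ob/ob against control, -0.17 to 0.12 for Th, -0.14 to 0.040 for Ddc, -0.29 to -0.11 and -0.97 to -0.50 for the brighter and the dimmer Hdc probe set and 0.27 to 0.36 for Hrh3. For STZ against control it gave -0.00096 to 0.29 for Th, -0.017 to 0.17 for Ddc, -0.16 to -0.03 and -0.82 to -0.26 for Hdc and 0.10 to 0.15 for Hrh3. For ob/ob against STZ it gave -0.26 to -0.09 for Th, -0.18 to -0.08 for Ddc, -0.18 to 0.0063 and -0.54 to 0.091 for Hdc and 0.15 to 0.23 for Hrh3. The number of probe sets called on the whole array moved more. For ob/ob against control it was 31 with the neuron level, 29 with quantile normalization, 38 with array weights, 11 with arrays centred on their median, 6 with the compared groups alone, and 0 with the neighbouring or the hypothalamus level (limma, 1050 and 1236 at an unadjusted p under 0.05), and 8 to 43 without single arrays. For STZ against control it was 0 with the hypothalamus level (1118 at an unadjusted p under 0.05) and 0 to 18 without single arrays, 0 being without STZ 4 or STZ 5 (934 and 876). For ob/ob against STZ it was 10 with array weights, 3 with the filter at the 60th percentile, 2 with the hypothalamus level, 1 with the midbrain, neuron or neighbouring level, without the filter or with the compared groups alone, and 1 to 9 without single arrays. Single arrays that moved these counts by over 1.5 times were each control and ob/ob 2, 4 and 5 for ob/ob against control, control 1, 4 and 5 and STZ 1, 3, 4 and 5 for STZ against control, and control 1 and 4, STZ 1, 2, 4, 5 and 6 and ob/ob 2, 3 and 4 for ob/ob against STZ. Signal near background limits what the dimmer Hdc probe set can show.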

Other observations

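Of genes in the lists set around the members, Ghrh, the growth hormone-releasing hormone of arcuate neurons, some of which also make dopamine, was under the signal filter, with geometric means of 210 in ob/ob, 493 in STZ and 400 in control arrays. Its log2 difference, from the limma fit without the filter, was -0.93 ± 0.351 for ob/ob against control (adjusted p = 0.404) and 0.30 ± 0.335 for STZ against control (adjusted p = 0.914). Calb1, the calcium-binding protein calbindin, which is in the list of midbrain dopamine markers, stood at 0.09 ± 0.0454 in ob/ob (adjusted p = 0.452) and 0.13 ± 0.0433 in STZ mice (adjusted p = 0.389). Sncg, gamma-synuclein, of the same list, stood at -0.24 ± 0.112 in ob/ob (adjusted p = 0.394) and -0.07 ± 0.106 in STZ mice (adjusted p = 0.9). Both genes were named after their values were seen, as was Ghrh.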
